A study of Mus musculus with 9 samples.

Results

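The genes described here encode matrix and secreted proteins of the cochlear fibrocytes and of the acellular gels of the inner ear, together with 1 transcription factor of the fibrocyte lineage. The 8 members are Otos, Coch, Otor and Pou3f4 for the fibrocytes, Tecta and Tectb for the tectorial membrane, and Otoa and Otog for gel attachment and other acellular matrix. They were taken as the probe sets whose platform annotation gives exactly 1 gene symbol among these names. This gave 9 of the 34945 probe sets with a single gene symbol, and 8 of 18193 named genes. Pou3f4 had 2 probe sets and each other member 1.

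Fibrocytes of the spiral ligament and spiral limbus are the mesenchymal cells of the lateral and medial cochlear wall, where they return potassium towards the stria vascularis through gap junctions and secrete much of the cochlear matrix. The tectorial membrane is a collagen-rich gel over the hair cells that is built by supporting and interdental cells mainly during development and holds alpha- and beta-tectorin. Inherited hearing loss in humans is known for mutations of COCH, POU3F4, TECTA, OTOA and OTOG.

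RNA of whole cochleae of male C57BL/6 mice, an inbred strain known for early loss of hearing, was hybridised to 9 arrays of 1 colour. Young controls (YC) were 4 months old and older controls (MC) 15 months, both given 84 kcal per week. Calorie-restricted mice (CR) were also 15 months old and had received 62 kcal per week, a reduction of 26%, from 2 months of age. Each group has 3 samples, each of which pooled 4 cochleae of 2 mice, so that p-values measure the spread between pools of few animals. All mice were housed singly. Because whole cochleae were used, more cells of a type and more RNA per cell cannot be told apart in any value below.

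All arrays had been scaled to nearly the same trimmed mean, between 1493.6 and 1496.4 signal units, yet their medians ran from 526.8 to 1103.9. Young control 1 and every restricted array had a median of 626.6 or less (low-median arrays); the other two young controls and every older control had one of 842.4 or more (high-median arrays). Between restricted and older control samples, the diet and this array class therefore cannot be told apart by sorting the arrays. Values below are log2(signal + 16) after quantile normalization, and changes are differences on that scale. The label of the tissue was checked only on the members Otos and Coch. Their lowest deposited signal over the 9 arrays was 15335.9 for Otos and 15823.4 for Coch, far above every array median, although a probe set's brightness also depends on its probes. Tecta lay at the 19.6th percentile of mean log2 signal. The check does not show how much of each sample was cochlear tissue.

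The stretches before the RefSeq start sites of Otos, Coch and Otor are shown because the groups CR and MC did not overlap for these 3 members, the only ones for which that held on the brightest probe set. Each line gives the 250 bases before the start, 5′ to 3′ on the gene's strand, from RefSeq's table of build GRCm38.p6. Capitals mark CG dinucleotides and, in Otor, a TATAAA.
Otos, chr1:92648842-92649091, minus strand: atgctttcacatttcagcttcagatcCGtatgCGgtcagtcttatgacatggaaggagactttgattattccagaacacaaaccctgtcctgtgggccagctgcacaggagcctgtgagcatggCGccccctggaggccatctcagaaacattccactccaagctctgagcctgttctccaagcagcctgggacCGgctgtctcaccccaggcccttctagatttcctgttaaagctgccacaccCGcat
Coch, chr12:51593091-51593340, plus strand: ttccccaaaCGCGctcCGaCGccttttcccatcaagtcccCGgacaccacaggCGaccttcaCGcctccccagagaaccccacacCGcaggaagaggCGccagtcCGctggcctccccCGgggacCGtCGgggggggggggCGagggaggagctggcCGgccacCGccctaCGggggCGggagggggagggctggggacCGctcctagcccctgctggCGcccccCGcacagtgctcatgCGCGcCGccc
Otor, chr2:143078143-143078392, plus strand: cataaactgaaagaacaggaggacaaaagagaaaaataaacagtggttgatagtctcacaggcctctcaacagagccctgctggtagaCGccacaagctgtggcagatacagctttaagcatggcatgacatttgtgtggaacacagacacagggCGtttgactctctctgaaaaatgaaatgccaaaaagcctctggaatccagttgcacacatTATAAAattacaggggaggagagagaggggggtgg
These windows differed widely in composition. The window of Coch was 74.8% G and C and held 24 CG dinucleotides, where the median of all 32851 windows of this length was 52.4% and 6. The window of Otos held 5 CG (54% G and C), and that of Otor 2 (46% G and C). Otor carried TATAAA, the core of the TATA box, starting 35 bases before the start, a motif present on either strand in 12.4% of all windows and in no window of the other members. The octamer ATGCAAAT, the letters that POU-domain factors such as Pou3f4 are known to bind, was searched on both strands. It was in none of the 9 windows of the 8 members, where 1.6% of all windows hold it.

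The first comparison asked how the fibrocyte and matrix genes differ between 4 and 15 months of age. No member passed the threshold of a limma adjusted p under 0.05, and the means of Otos, Coch and Otor in the older controls lay within 0.12 log2 units of those of the young controls. At that threshold 0% of the 27022 probe sets tested passed in limma, whose smallest adjusted p = 0.927. An unadjusted limma p under 0.05 was found for 915 of them (3.39%). The second comparison asked how restriction changed the 15-month cochlea. There the restricted means of Otos, Coch and Otor were 2.05-fold, 1.97-fold and 1.88-fold those of the older controls, with no overlap between the groups, and none of them passed the threshold (limma adjusted p = 0.146, 0.156 and 0.197). Of all probe sets tested, 0.0925% passed in this comparison, and 19.5% had all restricted arrays above all older controls. For 5007 (18.5%) the unadjusted limma p was under 0.05. Among the 8 members 6 had a higher mean under restriction, against 54.7% of all probe sets. In the third comparison, restricted against young mice, 0% of probe sets passed the threshold of limma, with 2910 (10.8%) at an unadjusted p under 0.05. Otos, Coch and Otor did not overlap there either, as in 11.4% of probe sets for CR above YC. The share of probe sets with CR above both control groups at once was not computed. The comparisons with CR share its samples and are not independent of each other. In the moderated F test over the 3 groups 0% passed.

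**Figure D1:**
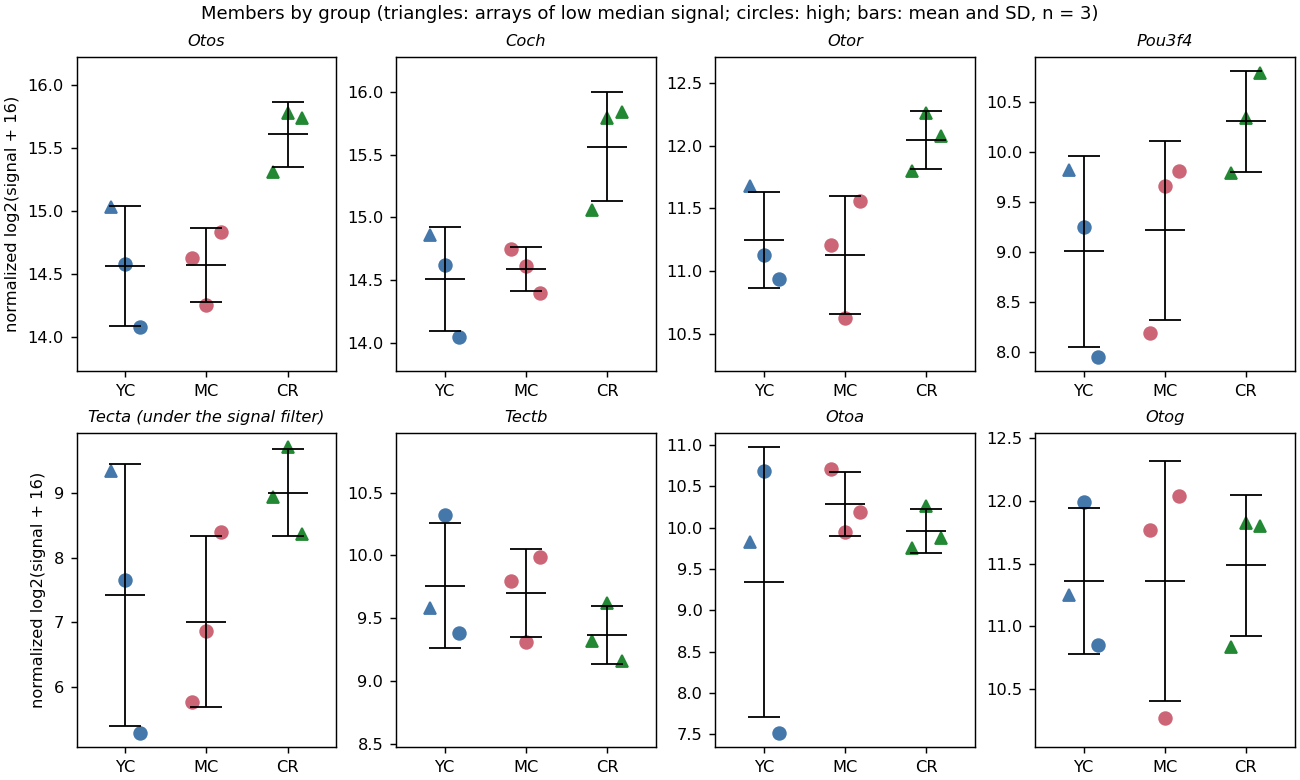
Normalized log2(signal + 16) of each member's brightest probe set on each array, by group (YC, MC, CR; n = 3 each), with the mean and SD as bars; triangles are low-median arrays and circles high-median arrays. In Otos, Coch and Otor the 3 restricted arrays lie above all 6 control arrays, and young control 1 is the highest young array.

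Otos encodes otospiralin, a small secreted protein of the ligament and limbus fibrocytes that is needed for normal hearing in mice. Its normalized log2 values were 15.03, 14.58 and 14.08 in young controls 1 to 3, 14.63, 14.25 and 14.83 in older controls 1 to 3, and 15.31, 15.78 and 15.74 in the restricted samples. All 3 restricted arrays thus lay above all 6 controls, and the young and older controls overlapped. As deposited, the restricted signals were 48536.3 to 57115.7, the older controls 18822.7 to 25897.2, and the young controls 15335.9 to 42372.5, where the highest young value was that of young control 1. The log2 change was 0.01 ± 0.25 (SE) with age (95% interval -0.55 to 0.57), 1.04 ± 0.25 for CR minus MC (interval 0.48 to 1.60) and 1.04 ± 0.25 for CR minus YC (limma adjusted p = 0.4). Without young control 1 the last was 1.28 and passed the threshold (limma adjusted p = 0.0488), in a fit in which 1.21% of probe sets passed, 328 in all and 128 of them higher.

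Coch encodes cochlin, an abundant secreted protein of the same fibrocytes. The young controls had 14.86, 14.62 and 14.05, the older controls 14.75, 14.61 and 14.40, and the restricted samples 15.06, 15.79 and 15.84. Restricted 1 stood only 0.20 above young control 1, the nearest control, while restricted 2 and 3 stood far from every control. In deposited signals the restricted arrays ran from 41187.6 to 62293.2 and the older controls from 19290.1 to 25022.3. The log2 change was 0.07 ± 0.26 with age (interval -0.50 to 0.64), 0.98 ± 0.26 for CR minus MC (interval 0.41 to 1.55) and 1.05 ± 0.26 for CR minus YC (limma adjusted p = 0.4).

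Otor encodes otoraplin, a small secreted protein related to the cartilage protein Mia and made by cochlear fibrocytes. Its values were 11.68, 11.13 and 10.94 in young controls, 11.21, 10.63 and 11.56 in older controls and 11.80, 12.26 and 12.08 in restricted samples. The lowest restricted array lay 0.12 above the highest control, which was again young control 1. The change was -0.12 ± 0.31 with age, 0.91 ± 0.31 for CR minus MC (interval 0.22 to 1.60) and 0.79 ± 0.31 for CR minus YC (limma adjusted p = 0.457).

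Pou3f4 encodes a POU-domain transcription factor of the otic mesenchyme from which the fibrocytes arise; it is also made in the brain. Its brightest probe set read 9.82, 9.25 and 7.95 in young controls, 8.19, 9.66 and 9.81 in older controls and 9.79, 10.34 and 10.79 in restricted samples. Restricted 1 overlapped the upper controls of both ages. The change was 0.21 ± 0.61 with age and 1.09 ± 0.61 for CR minus MC (interval -0.26 to 2.44, limma adjusted p = 0.351). Without older control 1, the lowest array of its group, the latter was 0.59 (limma adjusted p = 0.626); over all left-out arrays it ran from 0.59 to 1.40. The other probe set of Pou3f4 fell under the signal filter and was read from a fit of all 45037 probe sets. It gave 9.09, 8.81 and 8.96 in young controls, 9.16, 5.92 and 7.35 in older controls and 9.58, 10.39 and 10.08 in restricted samples. There the restricted arrays lay above all controls. Of all 45037 probe sets, 15.9% had CR above all older controls and 9.32% had CR above all young controls. The share above both at once was not computed. Its change was 2.54 ± 0.76 for CR minus MC (limma adjusted p = 0.179) and -1.48 ± 0.76 with age (limma adjusted p = 0.995), so that the pair of probe sets had opposite signs with age and the same sign under restriction.

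Tecta and Tectb encode alpha- and beta-tectorin, the non-collagenous proteins of the tectorial membrane's striated sheet. Tecta was the only member whose brightest probe set fell under the signal filter, at the 19.6th percentile of mean signal, where the filter took the 40th. Its values ran from 5.29 to 9.34 in young controls, from 5.76 to 8.40 in older controls and from 8.37 to 9.72 in restricted samples. Older control 3 stood just above restricted 3, and the spread within the young controls (SD 2.04) was larger than any difference between groups. From the fit of all 45037 probe sets, of which 0.0622% passed for CR minus MC, the change was 2.00 ± 1.02 for CR minus MC (interval -0.22 to 4.22, limma adjusted p = 0.345) and -0.42 ± 1.02 with age (interval -2.64 to 1.80). For CR minus YC it was 1.58 ± 1.02 (interval -0.64 to 3.81, limma adjusted p = 0.571), and from 0.52, without young control 3, to 2.54, without young control 1, on leaving out 1 array. The data on Tecta limit its change only loosely.

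Tectb passed the filter and read 9.58, 10.32 and 9.38 in young controls, 9.80, 9.31 and 9.99 in older controls and 9.32, 9.62 and 9.16 in restricted samples. The groups overlapped in every comparison. The change was -0.06 ± 0.42 with age (interval -0.99 to 0.87) and -0.33 ± 0.42 for CR minus MC (interval -1.26 to 0.59, limma adjusted p = 0.67). The interval for CR minus MC takes in a loss of over one log2 unit, so the absence of a call does not show that Tectb was level. In deposited signals, before normalization, the restricted arrays (422.6 to 629.4) lay below the older controls (709.6 to 1227.6) without overlap, as 26% of the 27022 probe sets did in that table, where the restricted arrays have the lower medians; the log2 change in that table was -0.95 (limma adjusted p = 0.26).

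Otoa encodes otoancorin, which holds acellular gels to the surface of non-sensory cells such as those of the spiral limbus. Young control 3 stood far below the rest at 7.52, beside 9.82 and 10.68 in the other young controls. Older controls read 10.71, 9.95 and 10.19, and restricted samples 9.75, 10.26 and 9.87. The change was 0.95 ± 0.68 with age (interval -0.55 to 2.45, limma adjusted p = 1) and -0.33 ± 0.68 for CR minus MC (interval -1.83 to 1.17). Without young control 3 the age change was 0.04, so its size rested on that array.

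Otog encodes otogelin, a large mucin-like glycoprotein of the tectorial membrane and of the vestibular gels. Its values were 11.25, 11.99 and 10.85 in young controls, 11.77, 10.27 and 12.04 in older controls and 10.84, 11.82 and 11.80 in restricted samples. Each group spanned at least 0.98 log2 units, and the 3 group means lay between 11.36 and 11.49. The change was 0.00 ± 0.49 with age (interval -1.08 to 1.07) and 0.13 ± 0.49 for CR minus MC (interval -0.95 to 1.20, limma adjusted p = 0.897).

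**Figure D2:**
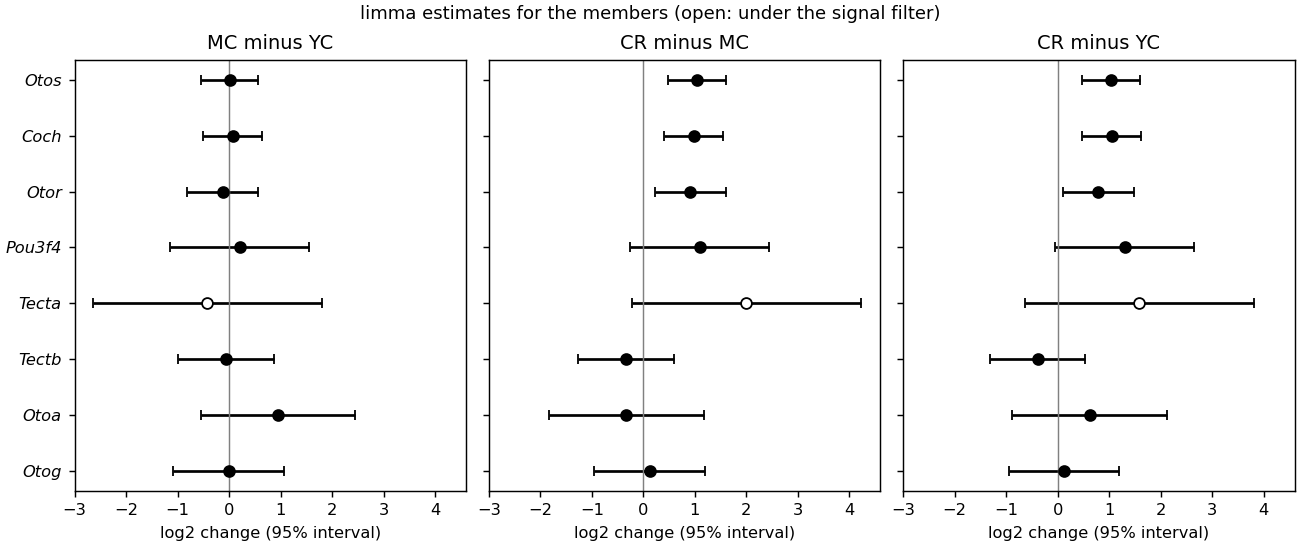
Log2 change of each member with its 95% interval from limma for age (MC minus YC) and for restriction against older (CR minus MC) and young controls (CR minus YC); the open symbol, Tecta, comes from the fit without a signal filter. The intervals of Otos, Coch and Otor lie to the right of 0 in both comparisons with CR, and no member passed after adjustment over all probe sets.

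The position of young control 1 bears on these values, since it is the only control array of the low-median class. Among young controls alone, it lay above young controls 2 and 3 by 0.71 for Otos, 0.53 for Coch, 0.64 for Otor and 1.22 for Pou3f4, and by 2.87 for Tecta. For the other members the difference from their mean was 0.72 (Otoa), -0.27 (Tectb) and -0.17 (Otog), with overlap. With a single array on one side these have no test. Young control 1 was above both others in 37.8% of the 27022 probe sets kept by the filter, which leave out Tecta. Among low-median arrays the restricted mean lay above young control 1 by 0.57 for Otos, 0.70 for Coch and 0.37 for Otor without overlap, as in 29.4% of probe sets, and by 0.48 for Pou3f4 with overlap. Among high-median arrays the older controls lay above young controls 2 and 3 by 0.24 for Otos, 0.25 for Coch and 0.10 for Otor, all with overlap. Array class as a term in the fit was estimated only from young control 1 against young controls 2 and 3. CR and MC each hold a single class. The term thus rests on a single array and adds nothing independent to the differences above. This holds for every value below with the class term. With the term, the change for CR minus MC was 0.33 ± 0.39 for Otos, 0.45 ± 0.44 for Coch, 0.27 ± 0.51 for Otor and -0.13 ± 1.03 for Pou3f4. For Tecta it was -0.87 ± 1.59, opposite in sign to the value without the term.

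Across the 9 arrays Otos, Coch and Otor were compared for their profiles. After each gene was centred on its own mean, the root mean square difference over 9 arrays was 0.16 between Otos and Otor, 0.22 between Otos and Coch, and 0.33 between Coch and Otor. Pou3f4 differed from these 3 by 0.54 to 0.64. Otog, a matrix member, differed from Otor by 0.55, from Otos by 0.62 and from Coch by 0.68. Otor was thus nearer to Otog than to Pou3f4 (0.64). Tectb and Otog differed by 0.46, and Otoa by 0.78 from each of them. These figures are descriptions of arrays that share their groups and their class, and a gene with small variation gives small differences. Among 13695 other named genes, those closest to Otos were Nsun4 (0.14), the gap junction gene Gjb2 and Sipa1l1 (0.16 each). Closest to Coch were Apod, an apolipoprotein (0.15), Nap1l2 and the gap junction gene Gjb6 (0.18 each). Otor was closest to Itih5 (0.16), Acbd5 and Gna13 (0.17 each), and Pou3f4 to B3galnt1 (0.35), the T-box gene Tbx18 of the otic mesenchyme (0.38) and Rmc1 (0.41). Tectb lay closest to Fam102b and Tle1 (0.13 each) and Trim28 (0.14), Otoa to Rab23 (0.28), Cysltr1 (0.33) and Avpr2 (0.34), and Otog to Lamb1 (0.26), Zfp763 and Uqcrc2 (0.30 each).

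**Figure D3:**
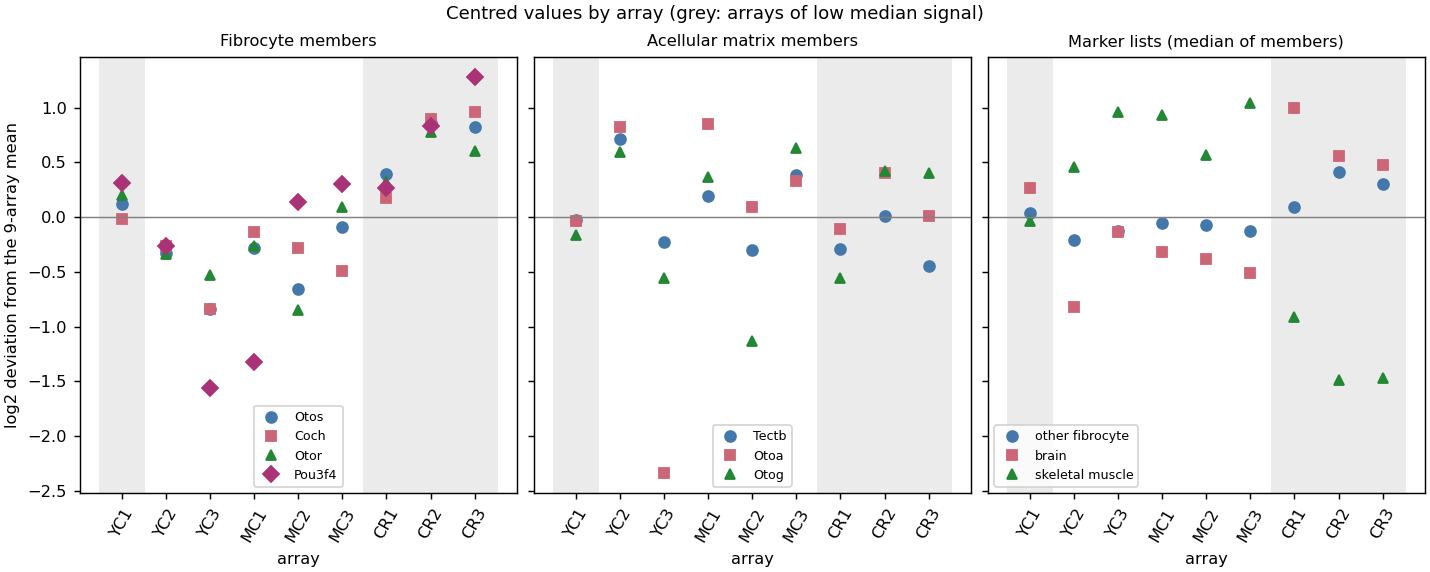
Deviation of each gene from its own mean over the 9 arrays (log2), by array, for the fibrocyte members, the acellular matrix members kept by the filter, and the medians of 3 marker lists; grey bands are low-median arrays. Otos, Coch and Otor are above their own means on all 3 restricted arrays and part from each other on older controls 2 and 3, while Otoa drops to -2.34 on young control 3 alone.

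The other genes of these tissues were read from lists that did not include the members. All 14 other fibrocyte genes passed the signal filter, and 0 of them passed the test in any comparison. For CR minus MC, 10 were higher and 4 lower, with a median log2 change of 0.45 beside 0.06 over all 13702 named genes; with array class as a term the medians were 0.09 and -0.09. In the table as deposited 11 of the 14 were higher, and with arrays centred on their median all 14 were, where the median of all probe sets was itself 0.57. Gjb2 and Gjb6, whose connexins join the fibrocytes in a network, had 0.98 ± 0.29 and 1.06 ± 0.25 (limma adjusted p = 0.175 and 0.146). Slc12a2, the sodium-potassium-chloride cotransporter through which fibrocytes take up potassium, had 0.49 ± 0.20 (limma adjusted p = 0.241), and Tbx18 had 1.41 ± 0.46 (limma adjusted p = 0.188). With the class term these 4 were at 0.35, 0.35, 0.20 and 0.40, in the order given. On the lower side was Emilin2, a matrix glycoprotein gene, at -0.40 ± 0.25, a value that turned positive with arrays centred and was -0.85 with the class term. Epha4, Aqp1, Vim, Cdh11 and Ccn3 were also below 0 with that term, from -0.77 to -0.01. The remaining genes of the list were above 0 with it. With age 7 were higher and 7 lower, with a median of 0.05 (4 higher and a median of -0.20 with arrays centred); the matrix protein gene Ccn3 had 0.48 ± 0.28 and Lum, which encodes lumican, -0.22 ± 0.20 (limma adjusted p = 1 for both).

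Of 13 other tectorial membrane and otolith matrix genes, 9 were on the array by a single-gene probe set and 6 passed the filter. These 6 were Sparcl1 and collagen genes. Ceacam16, Otogl, Strc, Otol1, Oc90, Zpld1 and Col9a2 were not among them, so the values of the list do not cover those genes. All 6 had a higher mean for CR than for MC and none passed the test, with a median of 0.97, or 0.30 with array class as a term; as deposited, 4 of the 6 were higher. Sparcl1, a matrix protein gene, had 1.19 ± 0.26 (limma adjusted p = 0.128). Collagen genes of the gel ranged widely: Col11a2 had 2.40 ± 0.99 (limma adjusted p = 0.24), Col9a3 1.75 ± 0.84 and Col9a1 0.75 ± 0.46, while Col2a1 had 0.16 ± 0.68 and Col11a1 0.13 ± 0.36. With the class term Sparcl1 was at 0.40, Col11a2 at 0.30, Col9a1 at 0.31 and Col11a1 at 0.39. Col9a3 and Col2a1 were at -1.36 and -0.96 with it. With age 3 were higher and 3 lower (median -0.07), among them Col2a1 at 0.76 ± 0.68 and Col11a2 at -0.67 ± 0.99.

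Markers of other cells and tissues also differed between these arrays. All 16 skeletal muscle markers were lower for CR than for MC, 12 of them past the threshold, and their summed normalized signal was 294507 to 414745 in CR, 1053170 to 1523018 in MC and 751189 to 1416987 in YC. Among them the myosin gene Myh2 fell by 4.31 (SE 0.43, limma adjusted p = 0.0233), and Tnni2, Eno3 and Atp2a1 had -2.22, -2.13 and -1.95 (limma adjusted p = 0.0357 for each); with the class term the 4 were at -4.24, -1.33, -1.48 and -1.44. Of 15 brain tissue markers 14 were higher for CR than for MC, 0 past the threshold, with a summed signal of 84798 to 119320 in CR, 36614 to 39630 in MC and 31608 to 56597 in YC; Car8 had 2.61 ± 0.46 and the synaptic gene Snap25 1.73 ± 0.32 (limma adjusted p = 0.0804 and 0.0904), or 1.36 and 1.01 with the class term. By array median, the brain list stood highest on restricted 1 (1.0). Of the restricted arrays, Otos (0.39), Coch (0.17), Otor (0.32), Pou3f4 (0.27), Otoa (-0.11) and Otog (-0.56) stood lowest there. Tecta (1.12) and Tectb (-0.29) did not, with 0.56 and -0.45 on restricted 3. The muscle list was least low on restricted 1, at -0.91 beside -1.49 and -1.47 on restricted 2 and 3. These are readings of a single array. The 12 of 13 supporting cell genes that passed the filter, among them genes of cells that make the tectorial membrane, gave 8 higher and 4 lower (median 0.55, and -0.17 with the class term). In that list Slc1a3 had 1.28 ± 0.23 and Epyc 0.99 ± 0.30 (limma adjusted p = 0.0841 and 0.177), and 1.57 and 0.07 with the class term. Of 11 bone and cartilage markers 6 were higher and 5 lower (median 0.05), of 8 melanocyte and stria markers 5 and 3 (median 0.70), of 11 blood and marrow markers 2 and 9 (median -0.27), and of 6 hair cell genes 3 and 3 (median 0.00). The medians of the bone and cartilage list (-0.12 as deposited), the hair cell list (-0.23 as deposited) and the blood and marrow list (0.38 with arrays centred) depended on the scaling in their sign. The genes of smallest p in these lists were Ibsp (1.58 ± 0.59) and Cnmd (1.17 ± 0.39) for bone and cartilage, Kcnj10 (1.76 ± 0.42) and Cldn11 (1.89 ± 0.47) for melanocytes and stria, Slc4a1 (-0.84 ± 0.23) and Ngp (-0.75 ± 0.23) for blood and marrow, and Calb2 (1.58 ± 0.34) and Myo7a (0.83 ± 0.40) for hair cells. None passed (limma adjusted p from 0.128 for Calb2 to 0.292 for Myo7a). With the class term they were at 1.45, -0.26, 0.36, 0.10, -1.16, -1.14, 0.47 and 0.39, in the order given. Among the lower genes, Pcdh15 of the hair cell list had -1.51 ± 0.79 and Esrrb of the melanocyte and stria list -0.87 ± 0.80. With the class term these were at 1.70 and 2.33. Only 2 of 5 vestibular and otoconial genes passed the filter, Otop1 at 0.82 ± 0.42 and Noxo1 at 2.38 ± 0.75 (limma adjusted p = 0.313 and 0.184); with the class term Otop1 turned to -0.26 and Noxo1 was at 1.42. No deposited value of any probe set was at or below 0, so a signal above 0 does not show that a marker was expressed. The part of these tissues in the values of the 8 members was not tested. Nor was it tested from which cells or tissues the changes of the listed genes came.

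**Figure D4:**
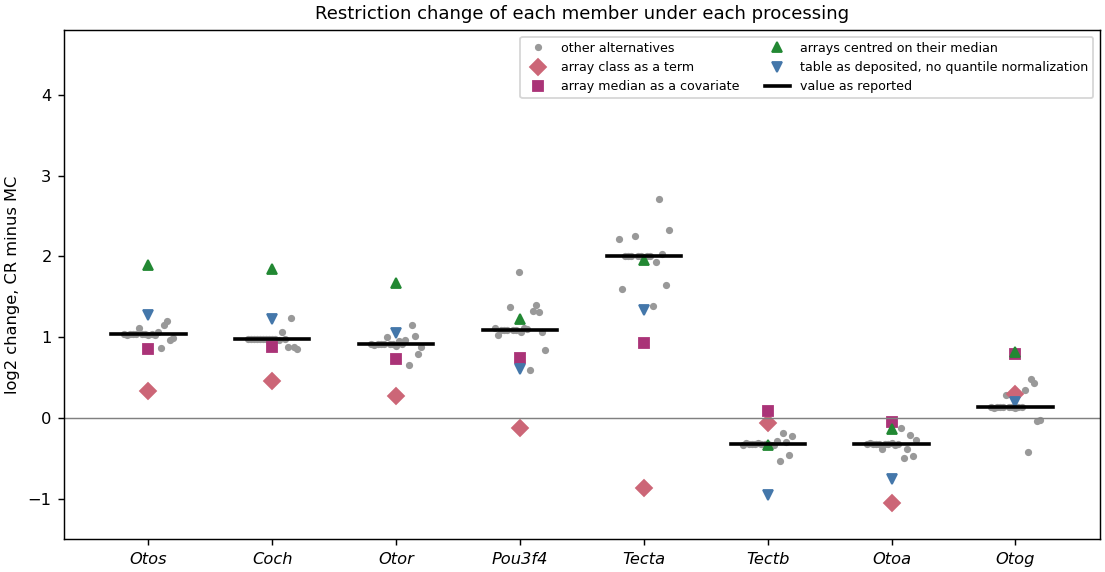
Log2 change for CR minus MC of each member as reported (black bar) and under each alternative processing (symbols). Otos, Coch and Otor stay above 0 throughout, with array class as a term giving their lowest values, from 0.27 to 0.45, while Pou3f4 and Tecta go below 0 with that term.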

How the data were processed

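The deposited table holds linear intensity values per probe set. GCOS 1.3 is named in the submitters' processing notes, with its signal algorithm not given in the sources used here. Per the labels' protocols, RNA was isolated with TRIzol and labelled with biotin by in vitro transcription.

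From the deposited intensity values, log2(signal + 16) was computed and quantile normalized, because array medians differed by over 1.5 times. The filter on low signal dropped probe sets whose mean log2 signal was under the 40th percentile and left 27022 of 45037. All 9 arrays were fitted by group in limma 3.58.1 (R 4.3.3; lmFit, eBayes with a variance trend), with Benjamini-Hochberg adjustment over all kept probe sets and a threshold of 0.05. The fit was tested on simulated data. With so few arrays the precision is low: the standard error of a log2 change had a median of 0.43. Members under the filter were read from a fit of all probe sets.

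The brightest single-gene probe set stands for each gene. Symbols were updated through gene IDs of RefSeq's GRCm38.p6 table, where 34741 of the 34945 single-gene probe sets and all 8 members were found; 932 probe sets had several symbols and 9160 are unnamed here. Array class was split at the widest gap of the array medians. All members are named. Each list gave up to 4 called genes, or the 2 of smallest p where none was called, for CR minus MC; with age such genes are given for the fibrocyte and tectorial lists alone, and CR minus YC for no list. Tbx18, Slc12a2, Emilin2, Epha4, Aqp1, Vim, Cdh11, Pcdh15, Esrrb and the collagens Col9a1, Col9a3 and Col11a1 were added after their values were seen. So were the values of Ccn3 and Col2a1 for CR minus MC. The members and lists were chosen with earlier results of these data known. Alternatives covered the pseudocount, filter, normalization, variance model, samples, pairing, array class and left-out arrays.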

Additional observations from a re-analysis of the deposited data

How the results depend on the processing

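Over the 8 members, 3 comparisons and all alternatives, 460 of 507 values kept their direction and their side of the threshold, 40 turned in sign, taken before rounding, and 7 came to pass. The age change of Otog, 0.00 here, had no direction to speak of, and 5 of its 21 values count among those that turned. For CR minus MC, Otos, Coch and Otor stayed positive in all 21 alternatives, with ranges of 0.33 to 1.89, 0.45 to 1.84 and 0.27 to 1.67. With array weights, whose estimation stopped before its tolerance was reached, all 3 passed (limma adjusted p = 0.00986, 0.0287 and 0.0228), 3 members in all, as did Tecta for CR minus YC (3.24, adjusted p = 0.00924), 1 member; 12.6% of all kept probe sets passed for CR minus MC, and 18.6% of all 45037 for CR minus YC in the fit without a filter from which Tecta is read, where 0% of kept probe sets did. With only the compared groups in the fit, 2 members passed, Otos (adjusted p = 0.0276) and Coch (0.0408), as did 6.83% of all probe sets. The highest adjusted p over the alternatives was 1 for each. With arrays centred on their median the median change of all probe sets for CR minus MC was 0.57, and in the table as deposited -0.05, beside 0.08 here. In that order Otos had 1.89 and 1.27.

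The count of probe sets called for CR minus MC, 25 (1 higher), was 0 with arrays centred on their median, without a variance trend, with the replicate block, with array class as a term and with the array median as a covariate. It was 7 (1 higher) in the table as deposited, 3397 (1793 higher) with array weights and 1846 (771 higher) with only the compared groups. Leaving out 1 array gave 0 to 1147 for CR minus MC, 0 to 328 for CR minus YC, and 0 to 1 member for CR minus YC, which was Otos without young control 1. Correlations of deviations between same-numbered arrays ran from -0.29 to 0.27. For numbers 1 to 3 they were 0.27, 0.16 and 0.04 between young controls and restricted samples. Between young and older controls they were 0.02, -0.29 and -0.13, and between older controls and restricted samples -0.01, -0.06 and 0.04. Not every array correlated best with its own number. So few arrays cannot settle whether the numbers pair the samples.

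Age changes that turned in sign were -0.14 for Coch and -0.22 for Otos with arrays centred, 0.18 for Tectb, 0.02 for Otog and 0.00 for Otos in the table as deposited, 0.00 for Otog with a pseudocount of 64, and -0.14 for Otos, -0.16 for Pou3f4 and 0.99 for Tecta with array weights. With array class as a term they were 0.10 for Otor and 0.54 for Tecta, and with the mean of its probe sets -0.63 for Pou3f4. On leaving out 1 array the age change ran from -0.16 to 0.25 for Coch, -0.34 to 0.14 for Otor, -0.23 to 0.24 for Otos, -0.32 to 0.73 for Pou3f4, -0.35 to 0.55 for Otog, -1.49 to 0.55 for Tecta and -0.25 to 0.23 for Tectb. For CR minus MC, Pou3f4 was -0.13 and Tecta -0.87 with array class as a term, Tectb 0.09 with the array median as a covariate, and Otog -0.42 to 0.48 on leaving out 1 array. For CR minus YC, Tecta was -0.33 with array class as a term, and on leaving out 1 array Otoa ran from -0.30 to 1.29 and Otog from -0.13 to 0.46. The cause was not tested.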
